A study of Rattus norvegicus with 16 samples.

Results

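The 10 genes described here sit between stress sensing, arrest of the cell cycle and the decision of a damaged cell to live or die: 5 growth arrest and p53 feedback genes (Cdkn1a, Mdm2, Ccng1, Gadd45a and Gadd45b), 2 survival genes of the Bcl2 family (Mcl1 and Bcl2l1) and 3 death genes of that family (Bbc3, Bcl2l11 and Bak1). The 10 genes were chosen with earlier results of these data known. Their probe sets were taken by symbol: every probe set whose only gene in the array annotation is one of the 10 was taken. This gave 18 of the 31099 probe sets and 10 of the 14218 genes measured. The study followed the rat cortex after a fluid percussion injury, in which a pulse of saline is driven against the exposed dura to bruise the brain. RNA of 16 cortex samples was hybridised to 16 Affymetrix arrays: 3 injured arrays each at 3, 6, 12 and 48 h, and 1 sham array at each of the same times. Injured and sham animals alike were male Wistar rats of 8 weeks that had a craniectomy over the right parietal cortex and a cranial adapter fitted 48 h earlier, so that surgery is shared by all groups. Injured animals received a moderate percussion of 3.3 ± 0.3 atm and shams received none, after which all were perfused with saline and the lateral cortex of the contusion area was taken for polyadenylated RNA.

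The transcription factor p53 is held low in resting cells by Mdm2, a ubiquitin ligase that p53 itself switches on, so that the pair forms a feedback loop. When p53 is stabilised by damage it raises Cdkn1a (p21, an inhibitor of cyclin-dependent kinases), Ccng1 (cyclin G1, which feeds back on Mdm2) and Gadd45a (a sensor of genotoxic stress that slows the cycle and activates stress kinases), and also Bbc3 (Puma), which promotes death. Gadd45b belongs to the same family as Gadd45a and answers to inflammatory signals and neuronal activity as well. In the Bcl2 family, Mcl1 and Bcl2l1 (Bcl-x) keep the outer membrane of mitochondria sealed, Bak1 forms the pores that open it, and Bbc3 and Bcl2l11 (Bim) tip the balance by binding the survival members.

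Promoter sequence is shown for the members in which a searched motif was found, because the members that moved and those that did not are both among them. Windows of 250 bases before the start of transcription came from RefSeq on the GRCr8 build, and 9 of the 10 members had one. Each stretch is written 5′ to 3′ on the gene's strand with the motif in capitals:
Mcl1: gccagctcccGGAAACTCCCgcccctctcc
Gadd45a: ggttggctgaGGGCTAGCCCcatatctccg
Ccng1: agacctgcccGGGCAAGCCTtggcattgaa
Cdkn1a: tggctttcagGAACATGTCTtgacttgttc
The Mcl1 stretch lies at chr2:185908059-185908088 on the plus strand, with its motif 99 bases before the start, and the motif is the one bound by NF-kB, the main factor of inflammatory signalling. The other motifs are p53 decamers, the unit that p53 binds in pairs. Only exact decamers were searched for, so a partner copy with a mismatch was not counted. In the Cdkn1a stretch the bases right after the decamer differ from the same pattern only in their first letter. The Gadd45a decamer lies 48 bases before the start (chr4:97486828-97486857, minus strand), the Ccng1 decamer 232 bases before it (chr10:25685089-25685118, minus strand) and the Cdkn1a decamer 201 bases before it (chr20:7150721-7150750, plus strand). Both strands were searched for 6 motifs, the other 4 being the CArG box, AP-1 (TGANTCA), the cyclic AMP response element (TGACGTCA) and the TATA box (TATAAA). Of 33469 RefSeq promoters cut in the same way, 6.64% held a p53 decamer and 6.33% an NF-kB motif. Whether either factor binds the matches shown was not tested. The windows of Gadd45b, Mdm2, Bak1, Bcl2l11 and Bcl2l1 held none of the 6 motifs, which says only that those letters were not found there.

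Every value below is the authors' log2 expression value of a gene after its median over the 16 arrays was subtracted, so 0 is the middle array and a difference of 1 is a doubling. In whole cortex, fewer cells of a type and less RNA per cell cannot be told apart. These values hold no absolute level: they show how 1 gene differs between arrays, not which of the genes was more abundant or whether it was detected. Injured groups were compared with the 3 shams of 3, 6 and 12 h (the early shams), since there was 1 sham per time. The 48 h sham was kept apart. A gene was called when limma's adjusted p was under 0.05, the adjustment running over all 14218 genes, and rose and fell are used only of called differences. The labels do not say how many animals an array holds, so p-values measure the spread between arrays. The spread of an array's values over all genes was widest in the injured 48 h replicate 2 (SD 0.387) and the injured 12 h replicate 2 (SD 0.372) and lay between 0.199 and 0.310 on the others. Calls, means and orders of the members at 12 h that the injured 12 h replicate 2 changes are given with and without it.

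Of the 10 members, 4 rose at 6 h (Gadd45b, Gadd45a, Mcl1 and Mdm2), against 1.98% of all genes called higher and 0.682% called lower. At 12 h 5 rose (the same 4 and Bak1), against 3.49% called higher and 1.38% called lower. None fell at either time. Because the members were chosen with earlier results of these data known, the shares of all genes give a scale and not a test. With only the 6 arrays of 12 h and the early shams in the fit, 1 of the 5 calls at 12 h was kept (Mcl1, limma adjusted p = 0.0399). At 3 h limma called no member, with 3 at an unadjusted p under 0.05, where 0.485% of all genes were called higher and 0.0985% lower (69 and 14 genes, or 125 and 53 after quantile normalization). At 48 h it called none of the 10 against the early shams, with 1 at an unadjusted p under 0.05, although 6.37% of all genes were called higher and 3.32% lower at that time. The median difference of the members was 0.20 at 3 h, 0.33 at 6 h, 0.39 at 12 h and 0.07 at 48 h, and the median of all genes lay between -0.02 and -0.01. All 3 injured arrays lay above all early shams for 3 members at 3 h, for 6 at 6 h, for 6 at 12 h and for 0 at 48 h. The same was true of 7.48%, 10.8%, 10.5% and 14.7% of all genes.

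**Figure D1:**
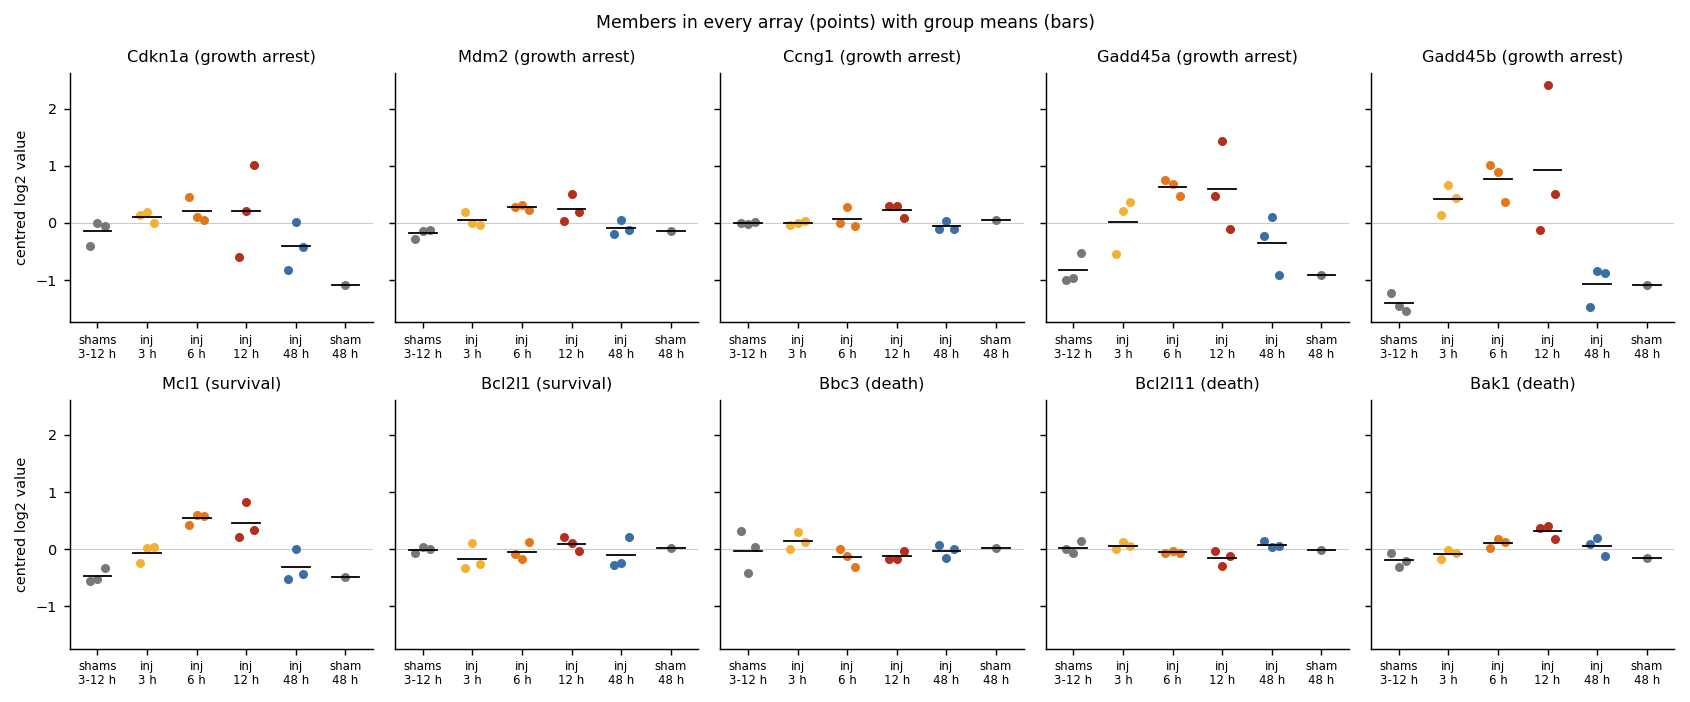
Centred log2 value (vertical axis) of each of the 10 members in every array, with 1 point per array and a bar at each group's mean; inj is injured, and the 48 h sham is a single array. Gadd45b, Gadd45a and Mcl1 are high in the injured arrays of 6 and 12 h, Bak1 is highest at 12 h, and Bbc3, Bcl2l11 and Bcl2l1 stay near 0 in all groups.

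Gadd45b (probe set 1372016_at) moved the furthest of the members. Its values were -1.22, -1.46 and -1.54 in the early shams, 0.13, 0.66 and 0.44 at 3 h, 1.02, 0.89 and 0.37 at 6 h, -0.13, 2.42 and 0.50 at 12 h, and -1.48, -0.85 and -0.88 at 48 h, with -1.08 in the 48 h sham. Every injured array of 3, 6 and 12 h lay above every early sham, and 1 of the 48 h arrays lay within the range of the early shams with the others just above it. The difference from the early shams was 2.17 ± 0.46 (SE, 3 arrays against 3) at 6 h, a 4.49-fold rise (limma adjusted p = 0.0202), and 2.34 ± 0.46 at 12 h, a 5.05-fold rise (limma adjusted p = 0.00992). At 3 h it was 1.82 ± 0.46 and was not called (limma adjusted p = 0.132), although the groups did not overlap; it was called after quantile normalization and when only those 6 arrays were fitted. The 12 h arrays were far apart, and without replicate 2 the 12 h difference was 1.59 and still called (limma adjusted p = 0.00394). The 6 h call was less steady: of the 6 fits that each left out 1 array it was kept in 1, without the injured 6 h replicate 3, and adjusted p reached 0.0926.

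Gadd45a (1368947_at) was high at the same times, at a smaller size. It was at -1.0, -0.96 and -0.53 in the early shams, at -0.54, 0.21 and 0.37 at 3 h, at 0.75, 0.68 and 0.47 at 6 h, at 0.47, 1.43 and -0.11 at 12 h, and at -0.23, 0.11 and -0.92 at 48 h, with -0.92 in the 48 h sham. The 6 and 12 h arrays were clear of the early shams, while 1 array of 3 h and 1 of 48 h lay among them. Gadd45a rose by 1.46 ± 0.35 at 6 h (2.76-fold, limma adjusted p = 0.039) and by 1.43 ± 0.35 at 12 h (2.69-fold, limma adjusted p = 0.0301). Neither call was robust to the loss of an array: at 6 h none of the 6 fits with 1 array left out kept it (adjusted p 0.0696 to 0.139), and at 12 h it was lost without the injured 12 h replicate 2 (1.01, adjusted p = 0.121) or without either the 3 h or the 6 h sham.

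Mdm2, the ligase that restrains p53, showed smaller differences. Averaged over 3 probe sets it was at -0.29, -0.14 and -0.12 in the early shams, 0.18, 0 and -0.03 at 3 h, 0.27, 0.31 and 0.23 at 6 h, 0.03, 0.50 and 0.19 at 12 h, and -0.20, 0.05 and -0.12 at 48 h, with -0.15 in the 48 h sham. All injured arrays of 3, 6 and 12 h were above all early shams. The rise was 0.45 ± 0.11 at 6 h (1.37-fold, limma adjusted p = 0.0442) and 0.43 ± 0.11 at 12 h (1.34-fold, limma adjusted p = 0.0416). The 6 h call was lost whichever of the 6 arrays was left out (adjusted p 0.0891 to 0.166), and the 12 h call was lost without the injured 12 h replicate 2 (0.29, adjusted p = 0.165) or any single early sham, which left it in 2 of the 6 fits.

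The classical p53 effector of arrest, Cdkn1a, was not called in any comparison. Averaged over 2 probe sets it was at -0.40, 0.005 and -0.055 in the early shams, 0.13, 0.185 and -0.005 at 3 h, and 0.455, 0.11 and 0.055 at 6 h. At 12 h its arrays were at -0.60, 0.215 and 1.02, the widest spread of any member apart from Gadd45b, and at 48 h they were at -0.825, 0.02 and -0.425. The 6 h arrays all lay above the early shams, but the difference was 0.36 ± 0.31 (limma adjusted p = 0.656), and the 95% interval of -0.30 to 1.02 holds both no change and a doubling. The 12 h difference was also 0.36 ± 0.31 (limma adjusted p = 0.56). The injured 12 h replicate 3, where Cdkn1a was at 1.02, was also the 12 h array with the highest mean of 5 choroid plexus markers (1.19). That mean was 0.39 on replicate 1, where Cdkn1a was at -0.60, and 0.07 on replicate 2, where it was at 0.215. The injured 3 h replicates 2 and 3 had choroid plexus means of 1.16 and 1.46, with Cdkn1a at 0.185 and -0.005. The 5 choroid plexus markers did not move as a set. Against the early shams their largest difference was 4.24 at 3 h and 2.60 at 12 h, while their median was 0.26 and 0.20. The part of such tissue in the result was not tested.

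Ccng1 (1367764_at), whose protein feeds back on Mdm2, was at -0.01, -0.02 and 0.01 in the early shams and at -0.03, -0.01 and 0.04 at 3 h. It was at -0.01, 0.28 and -0.05 at 6 h, at 0.30, 0.29 and 0.08 at 12 h, and at -0.10, 0.03 and -0.10 at 48 h. The 12 h arrays lay above all early shams, but the difference of 0.23 ± 0.09 was not called (limma adjusted p = 0.164).

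Mcl1 encodes a short-lived survival protein. The mean of its 2 probe sets was -0.55, -0.53 and -0.33 in the early shams, -0.25, 0.015 and 0.045 at 3 h, 0.43, 0.60 and 0.585 at 6 h, 0.22, 0.825 and 0.33 at 12 h, and -0.525, -0.005 and -0.43 at 48 h, with -0.49 in the 48 h sham. The 6 and 12 h arrays were above every array of 3 h, 48 h and the shams. Mcl1 rose by 1.01 ± 0.16 at 6 h (2.01-fold, limma adjusted p = 0.00296) and by 0.93 ± 0.16 at 12 h (1.90-fold, limma adjusted p = 0.0046). Both calls were kept in all 6 fits that left out 1 array, which held for no other member at both times, and without the injured 12 h replicate 2 the 12 h rise was 0.74 (adjusted p = 0.0138). At 3 h the difference was 0.41 ± 0.16 with no overlap between groups and was not called (limma adjusted p = 0.411).

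Bcl2l1, the other survival member, showed no called difference. Its 3-probe-set mean was -0.07, 0.04 and 0.01 in the early shams, -0.33, 0.10 and -0.26 at 3 h, -0.09, -0.17 and 0.13 at 6 h, 0.21, 0.11 and -0.03 at 12 h, and -0.27, -0.25 and 0.22 at 48 h. Its arrays overlapped those of the shams at every time. The difference was -0.03 ± 0.14 at 6 h, with a 95% interval of -0.33 to 0.26, and 0.10 ± 0.14 at 12 h, with an interval of -0.20 to 0.40, so a difference of the size seen for Mcl1 at 6 h (1.01) lay outside both intervals.

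Among the death members, Bak1 (1368066_at), the pore former, was the one that rose. It was at -0.06, -0.32 and -0.20 in the early shams, -0.18, -0.02 and -0.07 at 3 h, 0.02, 0.18 and 0.12 at 6 h, 0.37, 0.41 and 0.18 at 12 h, and 0.09, 0.19 and -0.12 at 48 h, with -0.16 in the 48 h sham. Its group means were -0.09, 0.11 and 0.32 at 3, 6 and 12 h, and all 6 and 12 h arrays lay above all early shams. The rise at 12 h was 0.51 ± 0.10 (1.43-fold, limma adjusted p = 0.00838), and the 6 h difference of 0.30 ± 0.10 was not called (limma adjusted p = 0.143). The 12 h call was kept in 5 of 6 fits with 1 array left out and just missed the threshold without the 6 h sham (adjusted p = 0.0506).

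Bbc3 (1382993_at), the death gene most directly tied to p53, was at 0.31, -0.41 and 0.03 in the early shams, 0, 0.30 and 0.13 at 3 h, 0.01, -0.12 and -0.31 at 6 h, -0.17, -0.17 and -0.03 at 12 h, and 0.07, -0.16 and 0 at 48 h. The shams alone spanned the range of the injured arrays. Its difference was -0.12 ± 0.15 at 6 h, with a 95% interval of -0.44 to 0.20, and -0.10 ± 0.15 at 12 h, with an interval of -0.42 to 0.22, and neither was called. Bcl2l11 had values between -0.30 and 0.14 on all 16 arrays. Its largest difference was -0.17 ± 0.08 at 12 h, not called (limma adjusted p = 0.234).

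**Figure D2:**
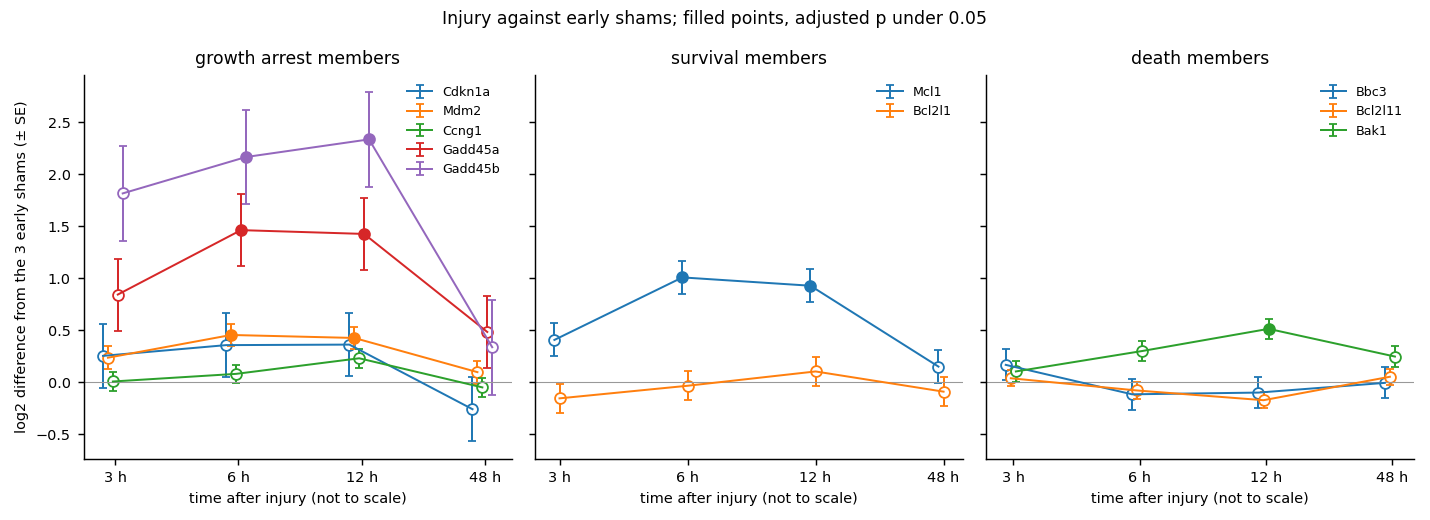
Log2 difference of each member from the 3 early shams (vertical axis, ± SE) at 3, 6, 12 and 48 h (horizontal axis, not to scale), in 3 panels by role; filled points have a limma adjusted p under 0.05. Filled points are Gadd45b, Gadd45a, Mdm2 and Mcl1 at 6 and 12 h and Bak1 at 12 h.

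The roles were set side by side as the mean of their members in each array, given without a test because the members were chosen with results of these data in view. The 5 growth arrest members averaged -0.52 in the early shams (arrays -0.58 to -0.45), 0.12 at 3 h (-0.03 to 0.21), 0.39 at 6 h (0.21 to 0.50), 0.44 at 12 h (0.01 to 0.97, mean 0.175 without the injured 12 h replicate 2) and -0.39 at 48 h (-0.57 to -0.13). The 2 survival members averaged -0.24 in the early shams, -0.11 at 3 h, 0.25 at 6 h, 0.28 at 12 h (0.18 without the injured 12 h replicate 2) and -0.21 at 48 h. The mean of the 3 death members stayed between -0.06 and 0.04 in every group. At 12 h this mean joined members that went opposite ways. Against the early shams Bak1 rose by 0.51, while Bcl2l11 (-0.17) and Bbc3 (-0.10) were lower and not called. Growth arrest minus death, read within each array, was -0.45 in the early shams, 0.42 at 6 h (0.30 to 0.51) and 0.42 at 12 h, where the arrays ran from -0.04 to 0.99 and the mean without the injured 12 h replicate 2 was 0.14. Within the classes, Gadd45b and Gadd45a had the largest differences in the first and Mcl1 in the second.

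The balance between survival and death genes was also read within each array. Survival minus death, taken over the class means, was -0.17 in the early shams (arrays -0.39 to 0.02), -0.15 at 3 h (-0.23 to -0.08), 0.28 at 6 h (0.19 to 0.44), 0.26 at 12 h (0.14 to 0.49) and -0.24 at 48 h (-0.50 to -0.08). The 6 and 12 h arrays lay above the early shams, and the 12 h mean without the injured 12 h replicate 2 was 0.149. Single genes were then set against Mcl1, the survival member that rose. Mcl1 was taken because it rose, and by itself it was already clear of the shams at both times. A gap from the shams in these differences therefore restates in part the rise of Mcl1. Mcl1 minus Bbc3 was -0.45 in the early shams (arrays -0.86 to -0.12), 0.68 at 6 h (0.42 to 0.90) and 0.58 at 12 h (0.36 to 0.995, mean 0.375 without the injured 12 h replicate 2). Mcl1 minus Bak1 was -0.28 in the early shams and 0.43 at 6 h (0.41 to 0.47), but 0.14 at 12 h (-0.15 to 0.42), where Bak1 had risen as well, and 0 there without the injured 12 h replicate 2. These are shifts relative to each gene's own middle array and not ratios of transcript amounts.

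**Figure D3:**
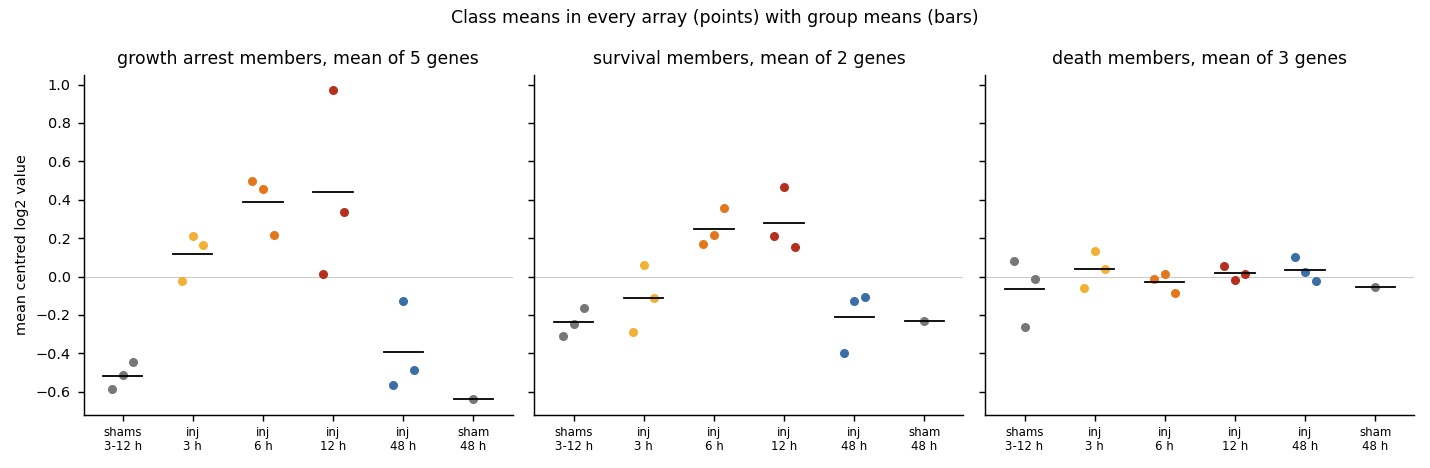
Mean centred log2 value (vertical axis) of the growth arrest, survival and death members in every array, with 1 point per array and a bar at each group's mean. Growth arrest means lie between -0.58 and -0.45 in the early shams and between 0.21 and 0.50 at 6 h, while the group means of the death members stay between -0.06 and 0.04. Among the death members Bak1 alone rose at 12 h.

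Adjacent times were compared among the injured arrays alone, a step in which no sham enters. From 3 to 6 h limma called no member, with 1 at an unadjusted p under 0.05, where 0.795% of all genes were called higher and 0.401% lower. That gene was Mcl1, 0.60 ± 0.16 higher at 6 h (limma adjusted p = 0.0896) with no overlap between the arrays, a separation that 13.1% of all genes showed in that direction. From 6 to 12 h it again called none, with 1 at an unadjusted p under 0.05 (Bak1, 0.21 ± 0.10, limma adjusted p = 0.563), and 0% of all genes were called higher and 0.0141% lower.

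From 12 to 48 h, 3 members fell, against 7.14% of all genes called lower and 8.19% called higher. Gadd45b fell by 2.0 ± 0.46 (limma adjusted p = 0.0103), Mcl1 fell by 0.78 ± 0.16 (limma adjusted p = 0.00565) and Ccng1 fell by 0.28 ± 0.09 (limma adjusted p = 0.0498). For each of them all 48 h arrays lay below all 12 h arrays, as for 13.2% of all genes. None of the 3 was called with only those 6 arrays in the fit. Without the injured 12 h replicate 2 the falls of Gadd45b (-1.25, adjusted p = 0.00744) and Mcl1 (-0.595, adjusted p = 0.0193) were still called, and that of Ccng1 was not (adjusted p = 0.137). Ccng1 was called in 1 of the 6 fits with an array left out, the one without the injured 12 h replicate 3. The differences of Mdm2 (-0.33, adjusted p = 0.0596), Bak1 (-0.27, adjusted p = 0.0814), Gadd45a (-0.94, adjusted p = 0.0826) and Cdkn1a (-0.62, adjusted p = 0.195) pointed the same way and were not called by limma. Each was called lower in 1 of the 6 fits with an array left out. For Mdm2 and Cdkn1a this was the fit without the injured 12 h replicate 1, for Bak1 and Gadd45a the one without replicate 3. Bcl2l11 was 0.23 ± 0.08 higher at 48 h with no overlap between the arrays and was not called either (limma adjusted p = 0.0705). It was called higher without the injured 12 h replicate 1 (limma adjusted p = 0.0352) and when its probe set of widest spread stood for the gene (limma adjusted p = 0.0105).

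At 48 h the choice of control turned the sign of Cdkn1a, with no call either way. Cdkn1a was at -1.095 in the 48 h sham, its lowest value on any array, a difference of -0.945 ± 0.43 from the early shams (limma adjusted p = 0.723); in that comparison limma called no member, with 1 at an unadjusted p under 0.05, and 0.00703% of all genes lower. The injured 48 h arrays differed by -0.26 ± 0.31 from the early shams (limma adjusted p = 0.656) and by 0.685 ± 0.43 from the 48 h sham (limma adjusted p = 0.778), and neither difference was called. Against the single 48 h sham limma called no member, with none at an unadjusted p under 0.05, and it called 0% of all genes in either direction (129 genes without the injured 48 h replicate 3). The 48 h sham was within 0.33 of the early sham mean for each of the other 9 members.

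The order of the groups was read from their means. For Gadd45b it ran 12 h, 6 h, 3 h, then 48 h, 48 h sham and early shams, and of the injured neighbours only 3 and 48 h did not overlap. Without the injured 12 h replicate 2 the 12 h mean of Gadd45b was 0.185 in place of 0.93, below those of 6 h (0.76) and 3 h (0.41), so the first place of 12 h rests on that array. For Mcl1 it ran 6 h, 12 h, 3 h, 48 h, early shams and 48 h sham, with a gap only between 12 and 3 h. For Gadd45a the order was 6 h, 12 h, 3 h, 48 h, early shams and 48 h sham, and each neighbouring pair overlapped. For Bak1 it was 12 h, 6 h, 48 h, 3 h, 48 h sham and early shams, again with overlap at each step.

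There were 5 members read by more than 1 probe set, and these did not always move together. Both probe sets of Mcl1 were called on their own at 6 h (1.18 and 0.84) and at 12 h (1.15, limma adjusted p = 0.00325, and 0.71, limma adjusted p = 0.0117). The 3 of Mdm2 all pointed up at 6 h (0.38, 0.47 and 0.52) and at 12 h (0.35, 0.54 and 0.39), yet none was called alone, so Mdm2's call exists only for their mean. The 2 of Cdkn1a were alike at 12 h (0.32 and 0.41). For Bcl2l11 the set 1388742_at was lower at 12 h, with arrays at -0.26, -0.85 and -0.47 and a difference of -0.48 ± 0.16 that was not called (limma adjusted p = 0.131), while the other sets differed by -0.07 and 0.03. From 12 to 48 h the same set rose by 0.72 ± 0.16 (limma adjusted p = 0.0112). For Bcl2l1 the set 1370485_a_at ranged from -0.82 to 0.45 over the arrays with no order by group. Which transcript ends or splice forms these sets read was not analysed here.

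**Figure D4:**
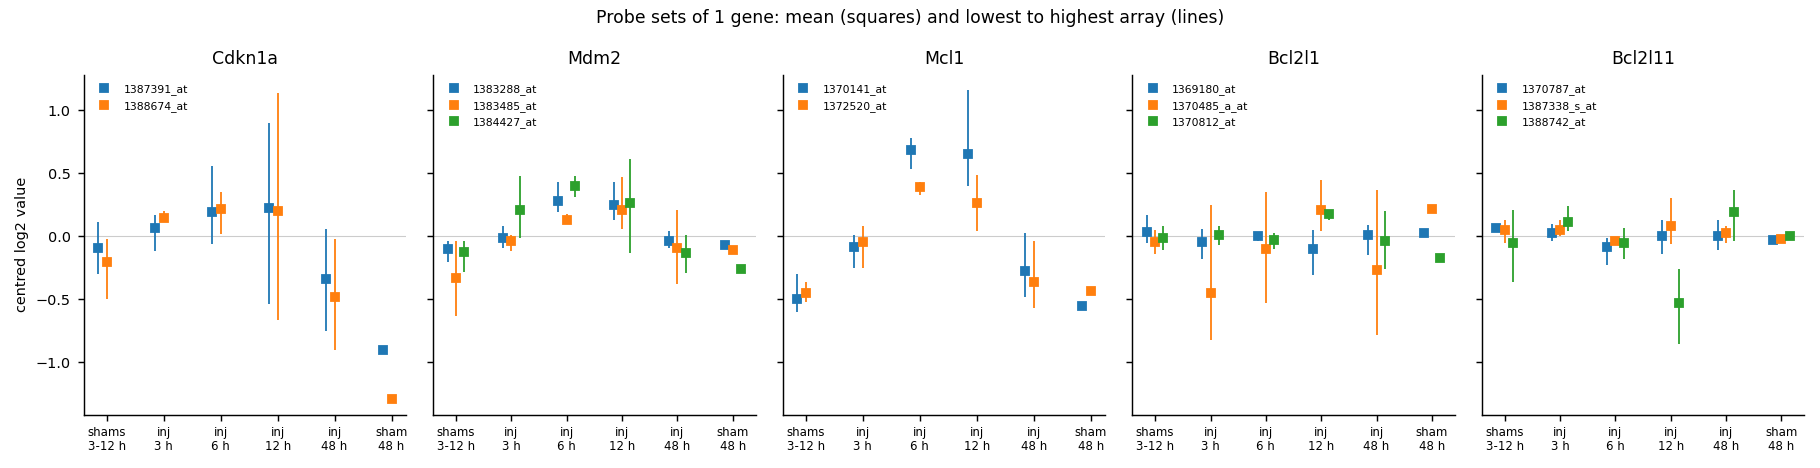
Centred log2 value (vertical axis) of each probe set of the 5 members with several, by group; squares are group means and lines run from the lowest to the highest array. The probe sets of Mcl1, Mdm2 and Cdkn1a follow each other, while 1388742_at of Bcl2l11 is low at 12 h and 1370485_a_at of Bcl2l1 is spread widely.

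Other genes of the pathway were taken from lists by role. Among 26 other p53 targets and regulators measured, 3 rose at 6 h and 2 at 12 h, none fell at those times and none was called at 3 h, with 3 at an unadjusted p under 0.05 in limma. Over all genes 1.98% were called higher at 6 h, 3.49% at 12 h and 0.485% at 3 h. The list's median difference was 0.06 at 6 h and 0.07 at 12 h, close to the -0.02 of all genes. Gadd45g, the third gene of the Gadd45 family, rose by 2.69 ± 0.44 at 6 h (limma adjusted p = 0.00365) and 2.61 ± 0.44 at 12 h (limma adjusted p = 0.00408). Dram1, which acts in p53-driven autophagy, rose by 0.95 ± 0.20 at 6 h (limma adjusted p = 0.0218, called in 2 of the 6 fits with an array left out) and 1.09 ± 0.20 at 12 h. Fas, the death receptor, rose by 0.42 ± 0.08 at 6 h (limma adjusted p = 0.0083). At 48 h, when 6.37% of all genes were called higher and 3.32% lower, 1 of the 26 was called, Rchy1, another ubiquitin ligase of p53, which fell by 0.30 ± 0.09 (limma adjusted p = 0.047, called in 1 of 6 such fits); it is named only because it is the single call.

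Of 4 other survival genes of the Bcl2 family, Bcl2a1 was the one that rose, against the early shams at all 4 times: by 3.14 ± 0.33 at 3 h (limma adjusted p = 0.000275), 3.42 ± 0.33 at 6 h, 2.67 ± 0.33 at 12 h and 2.56 ± 0.33 at 48 h (limma adjusted p = 0.000911). Against the 48 h sham the 48 h difference of Bcl2a1 was 0.84 ± 0.46 and was not called (limma adjusted p = 0.733). Bcl2a1 is a survival gene characteristic of leukocytes. Bcl2 itself was not called at any time, with differences of -0.05, 0.09, -0.10 and 0.07 (each ± 0.08), and Bcl2l2 (Bcl-w) fell by 0.34 ± 0.08 at 48 h (limma adjusted p = 0.0132, called in 4 of 6 fits with an array left out). Of 9 other death genes measured, Bid, which links death receptors to mitochondria, rose by 0.79 ± 0.14 at 6 h (limma adjusted p = 0.00779) and 0.88 ± 0.14 at 12 h (limma adjusted p = 0.00311). Bnip3l, a mitophagy receptor, fell by 0.34 ± 0.07 at 12 h (limma adjusted p = 0.0126, lost without the injured 12 h replicate 2 or the 6 h sham), and the rest of that list was not called at any time.

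Caspases and their regulators were moved in part. Of 22 measured, 1 rose at 3 h, 4 at 6 h, 4 at 12 h and 5 at 48 h, and 1 fell, at 48 h. The shares of all genes called higher were 0.485%, 1.98%, 3.49% and 6.37% at these times, and 3.32% were called lower at 48 h. Birc3, an inhibitor of apoptosis induced by NF-kB, rose by 1.24 ± 0.24 at 3 h (limma adjusted p = 0.0379, called in 1 of 6 fits with an array left out), 2.22 ± 0.24 at 6 h (limma adjusted p = 0.000209) and 1.05 ± 0.24 at 12 h (limma adjusted p = 0.0246, called in 3 of 6). Casp4, an inflammatory caspase, rose by 1.52 ± 0.18 at 6 h, 2.13 ± 0.18 at 12 h and 1.30 ± 0.18 at 48 h (limma adjusted p = 0.00113). Casp1, the inflammasome caspase, rose at 48 h by 1.36 ± 0.32 (limma adjusted p = 0.017, called in 3 of 6). Both 48 h rises stood against the early shams only: against the 48 h sham Casp4 differed by 0.23 ± 0.25 (limma adjusted p = 0.895) and Casp1 by 0.09 ± 0.45 (limma adjusted p = 0.982), with overlap in each. Of 7 other inhibitors of cyclin-dependent kinases none was called at 3, 6 or 12 h, with 1, 3 and 1 at an unadjusted p under 0.05, and 3 rose at 48 h against the early shams, beside the 6.37% of all genes. These were Cdkn3 (1.53 ± 0.41, limma adjusted p = 0.0337), Cdkn1c (0.65 ± 0.17, limma adjusted p = 0.0309) and Cdkn2c (0.39 ± 0.08, limma adjusted p = 0.0113), called in 1, 2 and 3 of 6 fits with an array left out. Against the 48 h sham they differed by 0.77 ± 0.58, -0.04 ± 0.24 and 0.25 ± 0.12 and limma called none of them, with none at an unadjusted p under 0.05.

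**Figure D5:**
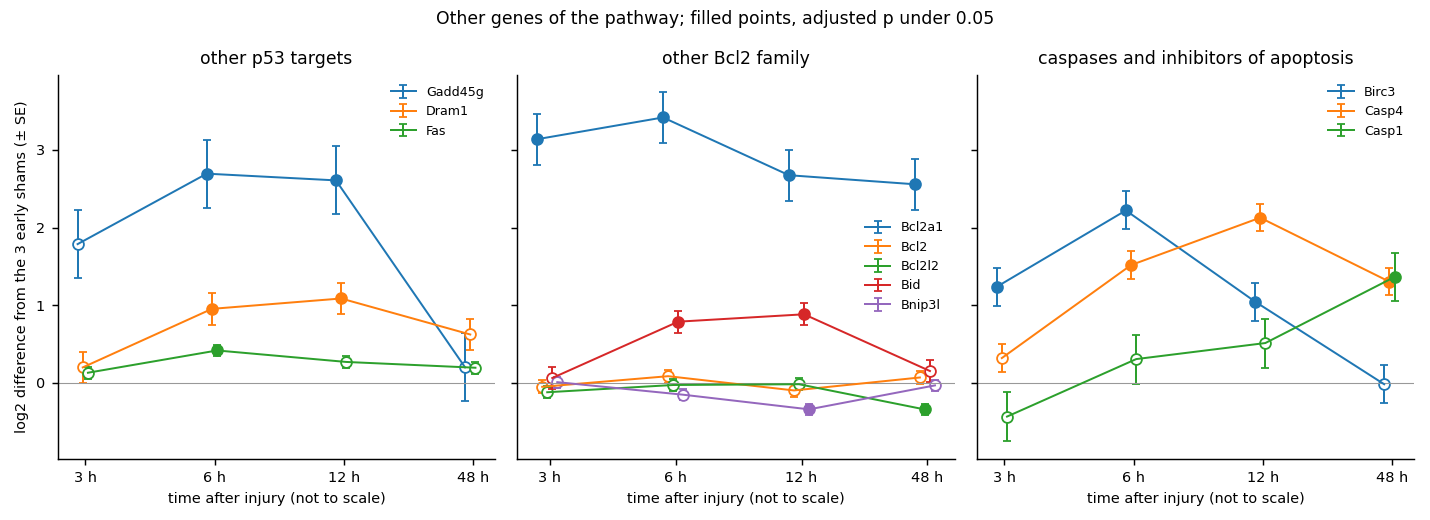
Log2 difference from the 3 early shams (vertical axis, ± SE) of other p53 targets, other Bcl2 family genes and caspases with inhibitors of apoptosis at 3, 6, 12 and 48 h (horizontal axis, not to scale); filled points have a limma adjusted p under 0.05. Bcl2a1 is above 2.5 at all 4 times, Gadd45g and Bid are called at 6 and 12 h, and Bcl2 stays within 0.10 of 0.

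Markers of other cells moved at the times when members rose. Of 7 listed neutrophil markers 6 were measured, and their mean went from -1.09 in the early shams (arrays -1.29 to -0.81) and -0.87 at 3 h to 2.01 at 6 h (1.20 to 2.67) and 2.63 at 12 h (2.42 to 2.97), then 0.58 at 48 h. Of these 6, 4 rose at 6 h and 5 at 12 h. The mean of 5 monocyte and macrophage markers went from -0.55 in the early shams to 0.18 at 6 h (-0.16 to 0.62), 0.38 at 12 h (0.15 to 0.77) and 1.0 at 48 h (0.26 to 1.85). Only 1 of these 5 rose at 6 h and 1 at 12 h, against 3 at 48 h. The largest difference among them was 3.54 at 6 h and 3.80 at 12 h, while their median was 0.12 and 0.19. The mean of 6 microglia markers was 0.20 in the early shams, -0.80 at 6 h, -0.73 at 12 h and 1.30 at 48 h, and that of 8 neuron markers lay between -0.18 and 0.12 in all groups. Of these 8 neuron markers 1 fell at 12 h (lowest difference -0.69). At 48 h 2 fell, and all 8 were below the early shams in their means (lowest difference -0.77). The mean of 2 erythrocyte markers was -1.04 in the early shams, 0.84 at 3 h, 1.12 at 6 h, 0.24 at 12 h and -1.01 at 48 h. These 2 were unlike, with differences from the early shams of 3.40 and 0.36 at 3 h and 2.53 and 0.02 at 12 h. The mean of 6 endothelium markers was 0.24 in the early shams, -0.73 at 6 h (4 of 6 fell and 1 rose) and -0.53 at 12 h (2 fell). That of 6 meninges and fibroblast markers was 0.59 in the early shams, -0.46 at 3 h (1 of 6 fell), -0.58 at 6 h (3 fell), -0.49 at 12 h (4 fell) and 1.12 at 48 h. That of 5 choroid plexus markers was -0.06 in the early shams, 0.96 at 3 h, -0.04 at 6 h and 0.55 at 12 h, where limma called none, with 2, 1 and 1 at an unadjusted p under 0.05. The largest choroid plexus difference was 4.24 at 3 h and 2.60 at 12 h, against medians of 0.26 and 0.20. Astrocyte (7) and oligodendrocyte (5) means lay between -0.25 and 0.31 in the early shams and the injured groups. The astrocyte mean at 12 h joined 1 marker that rose and 2 that fell (differences from -1.14 to 1.16), and 3 rose at 48 h. The part of all these cells in the rises of Gadd45a, Gadd45b, Mcl1, Mdm2 and Bak1 was not tested. At 3 h limma called no member and no neutrophil marker. The largest neutrophil difference was 1.06, and 1 of the 6 was at an unadjusted p under 0.05. The neutrophil mean of -0.87 (arrays -1.14 to -0.60) overlapped those of the early shams. The microglia, endothelium and astrocyte means overlapped them too. Above all early shams lay the erythrocyte mean (arrays 0.36 to 1.13, against -1.45 to -0.67) and the choroid plexus mean (0.25 to 1.46, against -0.08 to -0.04). So did the monocyte and macrophage mean (-0.49 to -0.09, against -0.57 to -0.53) and the oligodendrocyte mean (0.06 to 0.27, against -0.33 to 0.01). Below them lay the neuron mean (-0.02 to 0.05, against 0.08 to 0.14) and the meninges and fibroblast mean (-0.51 to -0.42, against 0.24 to 0.83). Since the values are centred, whether a marker is present or absent in a group cannot be read from them.

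Genes with the most similar course were found for the members that rose, as those with the smallest root mean square difference of centred values over the 16 arrays among 14217 other genes. They were Kdm6b (0.440) and Gadd45g (0.469) for Gadd45b, Gch1 (0.142) and Rai14 (0.152) for Mcl1, Smad1 (0.106) and Ptp4a1 (0.112) for Mdm2, Slc16a1 (0.0887) and Wwtr1 (0.0957) for Bak1, and Myc (0.269) and Tgm2 (0.278) for Gadd45a. The measure is smaller for genes that vary little, so its size compares candidates for 1 member and not members with each other.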

How the data were processed

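The authors deposited 1 table of expression values on a log2 scale, made with RMA per the submitters' processing notes; the log base is not given in the sources used here and is taken as 2. Each of the 31099 probe sets had a median of 0 over the 16 arrays, so the deposited values are centred per probe set and dim probe sets could not be filtered. Probe sets with 1 gene symbol (20832) were kept, those with several (436) left out, symbols were updated by gene ID (20764), and probe sets of a gene were averaged (14218 genes). One linear model of 6 groups was fitted with limma 3.58.1 in R 4.3.3 (lmFit, eBayes, Benjamini-Hochberg over all genes), after a test on simulated data. No batch was named. No 2 arrays were copies, the smallest root mean square distance between arrays being 0.202. PolyA spike-ins (24 probe sets) averaged -1.69 on the injured 12 h replicate 2, where hybridisation controls averaged -0.095. Alternatives were other probe set rules, normalizations, controls, groups fitted, a replicate block, a log2 difference of at least 1 and each array left out. Named genes were all members, up to 3 called genes of largest change per list, Bcl2, and the 2 genes most like each member that rose. The members and lists were chosen with earlier results of these data known.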

Additional observations from a re-analysis of the deposited data

Results flagged for a closer look

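The injury difference changed between 12 and 48 h for 3 members, tested as injured 48 h against injured 12 h, where the shared early shams cancel: Gadd45b by -2.0, Mcl1 by -0.78 and Ccng1 by -0.28 on the log2 scale. Each was lower at 48 h in 3 of 3 arrays than in any 12 h array, and the adjusted p-values were 0.0103, 0.00565 and 0.0498 in limma.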

How the results depend on the processing

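Over all alternatives, 104 of 165 called member differences stayed called, 61 lost the call and 0 reversed; of 955 that were not called, 15 became called and 50 changed sign without a call. At 3 h the count of members called went from 0 to 1 (Gadd45b) with quantile normalization and to 1 with only the arrays of the groups compared; leaving out 1 array gave 0 to 0. At 6 h it went from 4 to 0 against the 6 h sham alone and to 1 to 2 with 1 array left out. At 12 h it went from 5 to 1 (Mcl1) with only the groups compared, to 2 with a log2 difference of at least 1, to 0 against the 12 h sham alone, and to 2 to 5 with 1 array left out. At 48 h against the early shams it was 0 to 1 with 1 array left out (Bak1, without the injured 48 h replicate 3, adjusted p = 0.0391 in limma). From 3 to 6 h it went from 0 to 1 (Mcl1) with quantile normalization, with only the groups compared and with a replicate block. From 12 to 48 h it went from 3 to 0 with only the groups compared, to 1 (Gadd45b) with a log2 difference of at least 1, to 2 with a replicate block (Gadd45a and Mcl1), and to 2 to 5 with 1 array left out. Replicate numbers were not treated as pairs in the main fit. Deviations from the group means correlated between -0.19 and 0.19 across genes for same-numbered arrays of adjacent times. From 12 to 48 h these correlations were 0.09, 0.19 and 0.19. With 3 arrays a group they cannot show that same-numbered arrays were unrelated. Over all genes, quantile normalization moved the calls at 3 h from 69 higher and 14 lower to 125 and 53, at 6 h from 282 and 97 to 575 and 275, from 3 to 6 h from 113 and 57 to 460 and 226, and from 12 to 48 h from 1165 and 1015 to 757 and 648. With only the groups compared, all-gene calls went from 83 to 151 at 3 h, 379 to 796 at 6 h, 692 to 271 at 12 h, 1377 to 585 at 48 h, 170 to 551 from 3 to 6 h and 2180 to 388 from 12 to 48 h. With 1 array left out they ran from 33 to 117, 177 to 274, 287 to 1230, 482 to 2054, 39 to 157 and 1339 to 2442 in the same order, and the replicate block gave 405 and 417 for the last 2. A filter on dim probe sets was not run because centred values hold no brightness. Arrays number 3 a group, which limits precision, and centred values do not show signal over background.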
